A study of Mus musculus with 6 samples.

Results

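The kainate receptor genes Grik1, Grik2, Grik3, Grik4 and Grik5 and the genes of their auxiliary subunits, Neto1 and Neto2, were followed in cultured mouse cortical neurons with and without FMRP. These 7 genes were chosen by name from the 55367 rows of the count table. All 7 were found, and all 7 had enough reads to be tested. The cells came from the cerebral cortex of pups of strain C57BL/6J at postnatal day 1 and were kept for 2 days in vitro, 3 libraries from wild type (WT) pups and 3 from Fmr1-KO pups, which carry a knockout of the gene for the RNA-binding protein FMRP and model fragile X syndrome. Both genotypes went through the same removal of ACSA2+ astrocytes and myelin before plating. The study asked how mRNA levels, above all those of targets of nonsense-mediated mRNA decay (NMD), differ without FMRP, and every comparison below is Fmr1-KO relative to WT.

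Kainate receptors are ionotropic glutamate receptors built from 4 subunits around a cation pore. GluK1, GluK2 and GluK3, encoded by Grik1, Grik2 and Grik3, can form working channels without other subunit types, while GluK4 and GluK5, encoded by Grik4 and Grik5, bind glutamate with higher affinity and reach the cell surface together with GluK1, GluK2 or GluK3. NETO1 and NETO2 are transmembrane proteins with CUB domains that assemble with these channels and alter their desensitisation and deactivation. In the brain the receptors act on both sides of the synapse, where they shape transmitter release, network excitability and the growth of young axons.

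The family is shown first as sequence, because the reads of related genes have to be told apart before their counts can be compared. The stretch of 51 coding bases around the pore-loop glutamine codon, the Q/R site, is given for the longest coding transcript of each Grik gene in GENCODE M21 on GRCm38. The capitals mark the codon. In Grik1 and Grik2 transcripts, deamination of its adenosine by the editing enzyme ADAR2, the product of Adarb1, turns the glutamine into arginine.
Grik1: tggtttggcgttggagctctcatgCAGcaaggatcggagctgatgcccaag
Grik2: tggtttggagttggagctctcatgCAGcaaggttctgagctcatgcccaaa
Grik3: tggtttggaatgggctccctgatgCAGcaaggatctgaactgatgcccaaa
Grik4: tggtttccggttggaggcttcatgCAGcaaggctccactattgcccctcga
Grik5: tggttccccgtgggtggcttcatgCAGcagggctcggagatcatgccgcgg

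The codon is CAG in all 5 genes, and it is codon 621 of the Grik2 transcript and codon 636 of the Grik1 transcript used here. In Grik1 the stretch is split over 2 exons on the minus strand (chr16:87940538-87940568 and chr16:87936096-87936115). The same split is found in Grik2 on the minus strand (chr10:49244325-49244355 and chr10:49240777-49240796) and in Grik3 on the plus strand (chr4:125691183-125691213 and chr4:125693962-125693981). In Grik4 and Grik5 it lies within 1 exon on the minus strand (chr9:42547599-42547649 and chr7:25022473-25022523). Over these 51 bases Grik1 and Grik2 were 90.2% identical, and Grik3 and Grik4 were the least alike pair at 54.9%. Over whole coding sequences the identity of aligned bases was 72.7% for Grik1 and Grik2, 72.6% for Grik4 and Grik5, and 67.3% for Neto1 and Neto2. The longest run of bases shared exactly by any pair of the 7 genes was 46, between Grik2 and Grik3. None of the windows of 100 bases, the read length, in the annotated transcripts of the 7 genes was shared with another of them or with a transcript of any other gene, that is 0 windows for each gene. This covers reads of full length only. Reads shortened by trimming were not examined. The counts are of all reads in exons, so they do not tell edited from unedited transcripts or separate isoforms.

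The 7 genes lie on 7 chromosomes. Grik1 spans chr16:87895900-88290265 (minus strand), Grik2 chr10:49094833-49788766 (minus), Grik3 chr4:125490700-125714173 (plus), Grik4 chr9:42518135-42944493 (minus) and Grik5 chr7:25009849-25072346 (minus). Neto1 spans chr18:86394952-86506718 (plus) and Neto2 chr8:85636588-85700924 (minus), all on GRCm38. Several of them are among the longest genes measured: Grik2 spans 693934 bases, more than 99.3% of the 16734 tested genes with an annotated span, and Grik5, the shortest at 62498 bases, spans more than 77.5%. Exons of Grik4 overlap those of Gm24420, a gene on the same strand, by 59 bases, and no exon of the other 6 overlaps a gene on its own strand. GENCODE M21 annotates 2 transcripts of Grik5 as subject to NMD and 0 of the other 6 genes. None of the 7 is among the NMD targets that the study named from Neuro-2a cells (0 of 7). By the paper's account such targets come from a small share of genes, so this absence does not show that the 7 escape NMD. The paper also cautioned that its list misses targets present in the cultures but absent from Neuro-2a cells.

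The 6 libraries held between 30348556 and 35126207 counts, and the members had between 186 counts (Grik1) and 6713 counts (Grik5) in a library. Levels are given as CPM, the counts of a gene scaled to library size with TMM factors. Fmr1, the targeted gene, had 118.3, 112.2 and 109.6 CPM in WT replicates 1, 2 and 3 and 54.2, 61.4 and 56.7 CPM in the Fmr1-KO libraries. The direction matched the labels in every library, with the Fmr1-KO mean at 50.6% of the WT mean. Transcript of the gene thus remained, and RNA counts do not measure the FMRP protein. The labels name no litter, culture or preparation batch, and the paper describes the triplicates as independently derived. P values measure the spread between these libraries, which may be partly technical. If litter or preparation differed along with genotype, that difference could not be told apart from the one between genotypes.

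Of the 7 genes, 5 were lower and 1 was higher in Fmr1-KO by edgeR at the 0.05 threshold of adjusted P. The lower genes were Grik1, Grik3, Grik5, Neto1 and Neto2, the higher gene was Grik2, and Grik4 did not pass. A count of 6 of 7 is read against a wide background, since 42.6% of the 16976 tested genes were called, 21.9% as lower and 20.7% as higher. The median log2 fold-change was -0.28 over the 7 genes and 0.01 over all tested genes. In bulk RNA of a mixed culture, fewer cells of a type and less RNA of a gene per cell cannot be told apart, and this holds for every value below. For the same 6 genes the 3 libraries of one genotype did not overlap with the 3 of the other. Over all tested genes 51.7% were without overlap, 26.3% with the Fmr1-KO libraries below and 25.4% with them above.

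**Figure D1:**
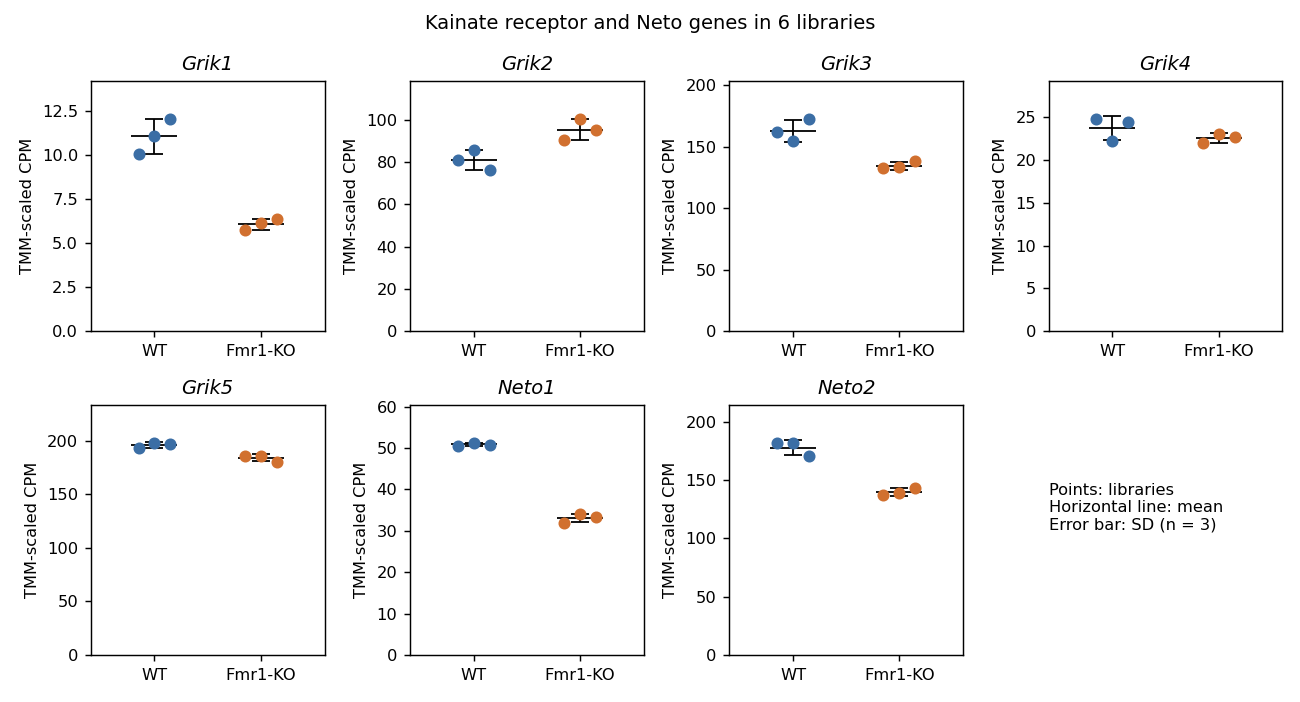
Level of each gene (TMM-scaled CPM, axis from 0) in the 3 WT and 3 Fmr1-KO libraries, with mean and SD. The genotypes are apart in 6 genes, downward in Grik1, Grik3, Grik5, Neto1 and Neto2 and upward in Grik2, while the Grik4 points overlap.

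Among the subunits that can form channels on their own, the direction was not shared. Grik1 encodes GluK1, which in the forebrain is best known from interneurons. It had 10.04, 11.07 and 12.02 CPM in WT replicates 1, 2 and 3 and 5.72, 6.11 and 6.35 CPM in Fmr1-KO replicates 1, 2 and 3. Each Fmr1-KO library was well below each WT library, with the highest Fmr1-KO value little over 6 CPM. The WT mean was 11.04 ± 0.988 CPM and the Fmr1-KO mean 6.06 ± 0.319 CPM (SD, 3 libraries each), that is 54.9% of WT. This corresponds to a log2 fold-change of -0.86 with an SE of 0.09 (edgeR, adjusted P 8.34e-08), the largest decrease of the 7 genes, and 2.96% of all tested genes had a lower value. Grik1 was also the scarcest member, so each of its values rests on 186 to 401 counts.

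Grik2 encodes GluK2, the subunit most widely found in principal neurons of the forebrain. It had 80.9, 85.8 and 76.1 CPM in WT replicates 1, 2 and 3 and 90.1, 100.2 and 95.3 CPM in the Fmr1-KO libraries. The lowest Fmr1-KO library was above the highest WT library, by a margin smaller than the range within either genotype. The WT mean was 80.9 ± 4.83 CPM and the Fmr1-KO mean 95.2 ± 5.03 CPM (SD, 3 libraries each), that is 117.6% of WT. This is a log2 fold-change of 0.23 with an SE of 0.04 (edgeR, adjusted P 0.000196). It was the only one of the 7 with a positive value, and it kept a positive sign under all 15 alternatives listed in the closing section. One of these, the required 1.2-fold change, reuses the reported fold change, so its sign could not differ. The difference was small enough that it was not called when a change of more than 1.2-fold was required (adjusted P 1 by edgeR).

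Grik3 encodes GluK3, a subunit with low sensitivity to glutamate. It had 162.2, 154.2 and 172.2 CPM in the WT libraries and 132.2, 133.0 and 138.3 CPM in the Fmr1-KO libraries. The Fmr1-KO libraries were close to one another and all below the lowest WT library. The WT mean was 162.9 ± 9.03 CPM and the Fmr1-KO mean 134.5 ± 3.28 CPM (SD, 3 libraries each), that is 82.6% of WT, a log2 fold-change of -0.28 (SE 0.04, adjusted P 3.83e-06 by edgeR). It too was not called with a change of more than 1.2-fold required (adjusted P 0.636 by edgeR).

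The high-affinity subunits changed least. Grik4, which encodes GluK4, had 24.8, 22.2 and 24.4 CPM in the WT libraries and 21.96, 23.1 and 22.7 CPM in the Fmr1-KO libraries. WT replicate 2 lay among the Fmr1-KO values, so the genotypes overlapped. edgeR gave a log2 fold-change of -0.08 with an SE of 0.06 (adjusted P 0.302) and a 95% interval from -0.20 to 0.04, so a decrease of up to 0.20 on the log2 scale was not excluded by these libraries.

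Grik5 encodes GluK5, the usual high-affinity partner of GluK2 in the forebrain. It had 193.1, 198.2 and 196.8 CPM in the WT libraries and 186.4, 186.0 and 180.4 CPM in the Fmr1-KO libraries. The genotypes did not overlap, but the gap between them was narrow. The WT mean was 196.1 ± 2.63 CPM and the Fmr1-KO mean 184.3 ± 3.32 CPM (SD, 3 libraries each), that is 94.0% of WT, a log2 fold-change of -0.09 with an SE of 0.03 (edgeR, adjusted P 0.0209). This call is the least certain of the 6. It was lost without WT replicate 2 (adjusted P 0.0575), without WT replicate 3 (0.0601) and without Fmr1-KO replicate 3 (0.0945), and with library totals in place of TMM factors (log2 fold-change -0.06, adjusted P 0.107 by edgeR).

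Both auxiliary subunit genes were lower. Neto1, whose product also associates with NMDA receptors, had 50.6, 51.3 and 50.8 CPM in the WT libraries and 32.01, 34.1 and 33.3 CPM in the Fmr1-KO libraries. The 2 sets of libraries were tight and far apart. The WT mean was 50.9 ± 0.336 CPM and the Fmr1-KO mean 33.1 ± 1.04 CPM (SD, 3 libraries each), that is 65.1% of WT, with a log2 fold-change of -0.62 (SE 0.04, adjusted P 1.77e-10 by edgeR).

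Neto2, whose product also binds the chloride transporter KCC2, had 182.1, 181.8 and 170.5 CPM in the WT libraries and 137.0, 138.9 and 143.8 CPM in the Fmr1-KO libraries. Again no library of one genotype reached the range of the other. The WT mean was 178.1 ± 6.62 CPM and the Fmr1-KO mean 139.9 ± 3.50 CPM (SD, 3 libraries each), that is 78.5% of WT, a log2 fold-change of -0.35 (SE 0.03, adjusted P 3.83e-08 by edgeR). Grik1, Neto1 and Neto2 were still called when a change of more than 1.2-fold was required, a rule by which 13.1% of all tested genes were called, 7.89% as lower and 5.20% as higher.

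**Figure D2:**
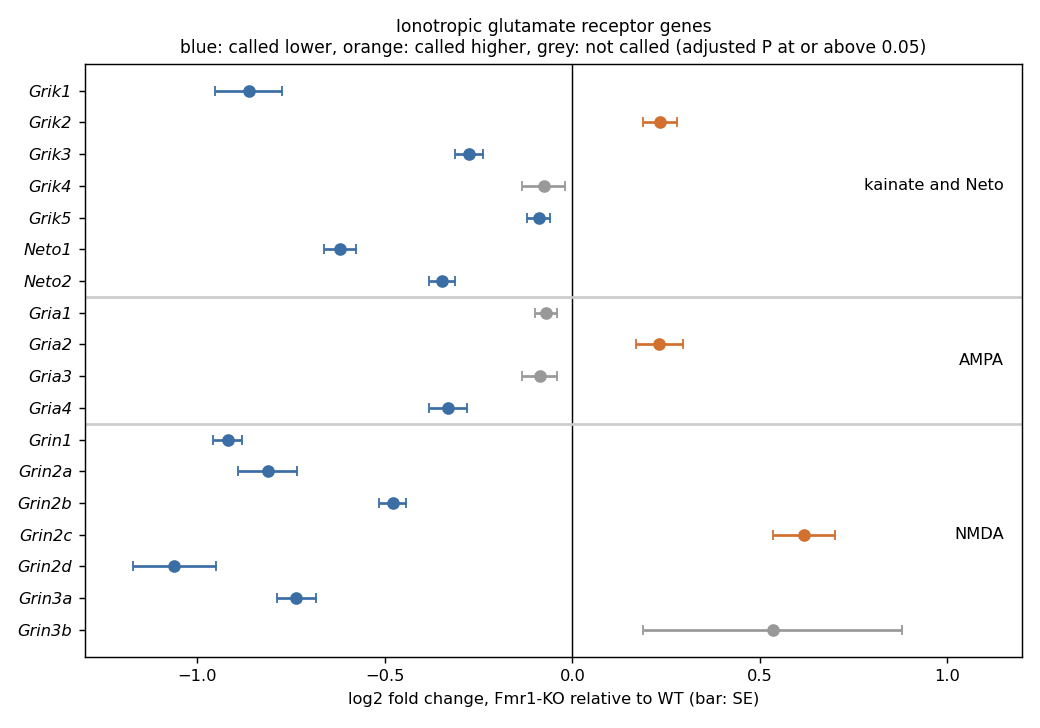
Log2 fold-change with SE of the kainate receptor and Neto genes and of the AMPA and NMDA receptor genes (blue points were called lower, orange points higher, grey points were not called). Grik2 is to the right of 0 at 0.23, Grik4 and Grik5 are close to 0, and Grik1 and Neto1 are the farthest to the left of the kainate group at -0.86 and -0.62.

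Levels of different genes can be compared only per length, so CPM were divided by the length of all annotated exons of a gene in kilobases (RPKM). In WT the order was Grik5 (37.9 ± 0.509 RPKM), Neto2 (29.1 ± 1.08), Grik3 (18.2 ± 1.01), Grik2 (6.11 ± 0.365), Neto1 (6.09 ± 0.0403), Grik4 (3.99 ± 0.236) and Grik1 (1.64 ± 0.147), each as mean and SD of 3 libraries. Grik2 and Neto1 overlapped in WT and were not separable, and every other neighbouring pair was apart in all libraries. In Fmr1-KO the order of the means was the same, but the overlapping neighbours were now Neto1 (3.97 ± 0.125 RPKM) and Grik4 (3.79 ± 0.0970 RPKM), while Grik2 stood apart at 7.19 ± 0.379 RPKM (SD, n = 3). The order depends on the length used. With the coding length of the longest coding transcript, Neto2 was ahead of Grik5 in both genotypes, and Neto1 was ahead of Grik2 in WT and behind it in Fmr1-KO.

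The make-up of the receptor transcripts was described by the share of each Grik gene in the summed RPKM of the 5 genes. Grik5 made up 55.6, 56.9 and 55.3% of the sum in WT replicates 1, 2 and 3 and 58.0, 57.0 and 56.1% in the Fmr1-KO libraries, with overlap between the genotypes. The high-affinity genes Grik4 and Grik5 together made up 61.8 ± 0.615% in WT and 63.1 ± 0.892% in Fmr1-KO (SD, n = 3), also with overlap. The size of these shares depends on the length used. With coding lengths Grik5 made up 39.8 ± 0.627% in WT and 40.1 ± 0.991% in Fmr1-KO (SD, n = 3). Grik4 and Grik5 together then made up 44.8 ± 0.395% in WT and 45.1 ± 0.943% in Fmr1-KO, and both shares again overlapped. Shares without overlap between the genotypes were found only in the other class, that of Grik1, Grik2 and Grik3. The mean share of Grik4 and Grik5 together was slightly higher in Fmr1-KO with both lengths, and a shift between the classes was not tested.

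The share of Grik2 was 9.09, 9.61 and 8.34% in WT and 10.9, 11.97 and 11.6% in Fmr1-KO. That of Grik3 was 26.9, 25.5 and 27.9% in WT and 23.7, 23.5 and 24.7% in Fmr1-KO, and that of Grik1 fell from 2.42 ± 0.187% to 1.44 ± 0.0741% (SD, n = 3). None of these 3 shares overlapped between genotypes. With coding lengths the share of Grik2 was larger, 17.7 ± 1.25% in WT and 22.3 ± 0.868% in Fmr1-KO (SD, n = 3), again without overlap. These shares are combinations of the members and were given no test.

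The Neto genes were lower relative to the summed receptor genes, a sum in which Grik5 weighed most (55.9% in WT and 57.0% in Fmr1-KO with exon lengths). This does not hold against each receptor gene. Grik1 had the larger decrease, to 54.9% of WT in CPM, against 65.1% for Neto1 and 78.5% for Neto2. Summed over Grik1 to Grik5 the level was 67.8 ± 0.936 RPKM in WT and 62.5 ± 0.550 RPKM in Fmr1-KO, and summed over Neto1 and Neto2 it was 35.2 ± 1.09 RPKM in WT and 26.8 ± 0.633 RPKM in Fmr1-KO (SD, n = 3). The ratio of the Neto sum to the Grik sum was 0.532, 0.531 and 0.492 in the WT libraries and 0.421, 0.424 and 0.441 in the Fmr1-KO libraries, without overlap. With coding lengths this ratio was 0.830 ± 0.0342 in WT and 0.671 ± 0.0127 in Fmr1-KO (SD, n = 3), also without overlap. Within the Neto sum, Neto2 took 83.1, 82.9 and 82.1% in WT and 85.4, 84.7 and 85.5% in Fmr1-KO, as Neto1 had the larger decrease.

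**Figure D3:**
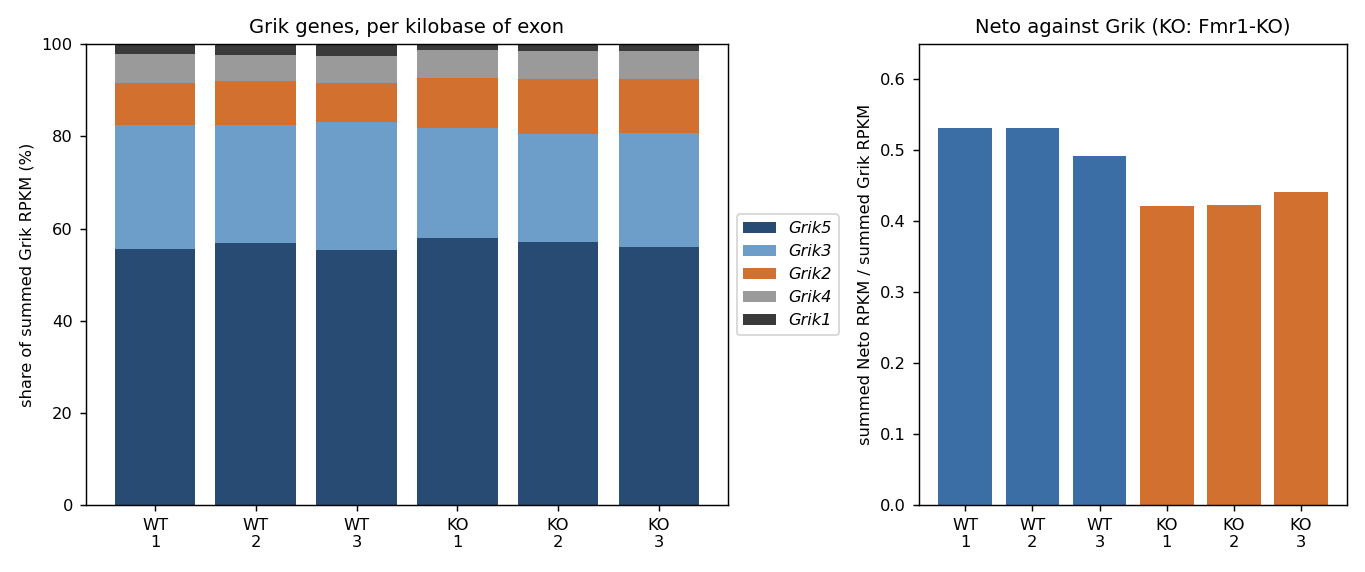
Left, share of each Grik gene in the summed Grik RPKM of a library (stacked to 100%); right, ratio of summed Neto RPKM to summed Grik RPKM (axis from 0), for the 3 WT and 3 Fmr1-KO libraries. The Grik2 segment is taller in all Fmr1-KO libraries (10.9 to 11.97%) than in WT (8.34 to 9.61%), and the Neto ratio is lower in all Fmr1-KO libraries (0.421 to 0.441) than in WT (0.492 to 0.532).

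The promoters of Grik2 and Grik3 are shown because these subunit genes, of the same class and with substantial counts, went in opposite directions. Each sequence is the window of 300 bases in RefSeq on GRCm38.p6 that ends 50 bases after the transcript start, on the strand of the gene. Capitals mark the GC box, searched as GGGCGG on both strands.
Grik2, minus strand, chr10:49788705-49789004: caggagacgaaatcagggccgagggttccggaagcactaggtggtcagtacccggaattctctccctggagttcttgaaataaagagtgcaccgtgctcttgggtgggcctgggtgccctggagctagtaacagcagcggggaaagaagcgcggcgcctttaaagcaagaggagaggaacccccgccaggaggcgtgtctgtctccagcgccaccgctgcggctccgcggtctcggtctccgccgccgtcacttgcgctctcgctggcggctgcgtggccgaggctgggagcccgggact
Grik3, plus strand, chr4:125490446-125490745: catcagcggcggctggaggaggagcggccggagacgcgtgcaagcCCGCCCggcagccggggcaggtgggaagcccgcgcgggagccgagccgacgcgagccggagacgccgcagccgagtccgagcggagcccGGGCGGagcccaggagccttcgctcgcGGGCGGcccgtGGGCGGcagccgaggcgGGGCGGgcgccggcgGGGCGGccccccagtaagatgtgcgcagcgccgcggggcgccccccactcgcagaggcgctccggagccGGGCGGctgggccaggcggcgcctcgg

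The Grik3 window held 7 GC boxes and the Grik2 window 0, while Grik4, Grik5 and Neto2 held 2 each, and 35.7% of the 32851 promoter windows in the RefSeq table held at least 1. The GC content of the 5 member windows ran from 64.7% (Grik2) to 82.0% (Grik3), against a median of 52.7% over all windows. None of the 5 held the TATA box TATAAA, the CCAAT box CCAAT or the cAMP response element TGACGTCA on either strand, with 0 matches each, while 13.6, 37.4 and 1.79% of all windows did. Grik1 and Neto1 were not included. These matches describe the letters of the windows only.

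Other genes that act on kainate receptors were taken from a list of 20 editing, scaffold, trafficking and turnover factors. Of these, 19 were in the table and tested, 6 were called lower and 6 higher by edgeR, and 7 were not called. Klhl17 was not analysed here. The median log2 fold-change of the 19 was -0.05, against 0.01 over all tested genes. Over all tested genes 42.6% were called, 21.9% as lower and 20.7% as higher. With a change of more than 1.2-fold required, 4 of the 19 were called lower and 0 higher, where 7.89% and 5.20% of all tested genes were.

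Adarb1, which encodes the editing enzyme ADAR2, was at 69.0, 66.8 and 74.0 CPM in the WT libraries and 45.2, 45.1 and 45.9 CPM in the Fmr1-KO libraries. The Fmr1-KO libraries were nearly identical and well under WT, with a log2 fold-change of -0.62 (SE 0.04, adjusted P 1.50e-10 by edgeR). Adar, the gene of the related enzyme ADAR1, had a log2 fold-change of -0.05 and was not called (adjusted P 0.195 by edgeR). Editing itself was not measured, since the table holds counts per gene.

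The other genes of the list that were called lower were Snap25, Grip2, Grip1, Dlg4 and Cask. Snap25, whose SNARE protein binds GluK5, had a log2 fold-change of -0.63 (SE 0.03, adjusted P 6.38e-12 by edgeR). It is also in the list of pan-neuronal markers below, whose median log2 fold-change was -0.64. Grip2 and Grip1, which encode PDZ scaffolds, had log2 fold-changes of -0.57 and -0.21, Dlg4, which encodes PSD-95, one of -0.36, and Cask, which encodes a scaffold kinase, one of -0.29. All were called lower, and in each of them the genotypes did not overlap. Genes of adhesion were on the other side: Ctnnb1 and Cdh2, which encode β-catenin and N-cadherin, had log2 fold-changes of 0.18 and 0.11. Senp1, which encodes a SUMO protease that acts on GluK2, had a value of 0.17. Klhl24, whose product KRIP6 regulates GluK2 channels, and Dlg1, which encodes SAP97, had values of 0.19 and 0.10. All of these were called higher. The call of Dlg1 was lost without WT replicate 1 (adjusted P 0.0738 by edgeR), without WT replicate 3 (0.0542), without Fmr1-KO replicate 1 (0.0604) and without Fmr1-KO replicate 2 (0.0917). Pick1, Cul3, C1ql2 and C1ql3 had log2 fold-changes between -0.47 and 0.05 and were not called. C1ql2 was barely detected, at 0.357 CPM in WT.

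The kainate group can be set beside the other ionotropic glutamate receptors of the same libraries. Of the 4 AMPA receptor genes, 1 was lower (Gria4, log2 fold-change -0.33) and 1 was higher (Gria2, 0.23) by edgeR. The Gria2 libraries overlapped between genotypes, and it was not called by DESeq2. Of the 7 NMDA receptor genes, 5 were lower and 1 was higher. Grin1, the obligatory subunit gene, had a log2 fold-change of -0.92, Grin2d one of -1.06 and Grin2c one of 0.62. The median log2 fold-change was -0.08 for AMPA receptor genes, -0.74 for NMDA receptor genes and -0.28 for the kainate and Neto genes. The last group includes the auxiliary Neto genes, while the AMPA and NMDA groups hold receptor subunits only. Among the 5 Grik genes alone the middle value was that of Grik5, -0.09, near the AMPA median. Whether these groups differ was not tested. Each of the 3 groups held genes of both directions, and Gria2 and Grik2 had nearly the same log2 fold-change, 0.23.

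Genes with the most similar profiles over the 6 libraries were found by the root mean square difference in log2 CPM centred on the WT mean, over the 16970 tested genes with a count in all libraries. For Grik2 these were Slf2, Smc3 and Bclaf3, with differences of 0.0171, 0.0201 and 0.0202 and log2 fold-changes of 0.25, 0.24 and 0.23. For Grik1 they were Gdf10, Efna3 and Map6d1, with differences of 0.0447, 0.0542 and 0.0546 and log2 fold-changes of -0.87, -0.82 and -0.89. The Grik1 neighbours depended on how low values were treated. With 0.5 CPM added before the logarithm, a setting that shrinks the changes of scarce genes, they were Ankrd34b, BC030500 and Pak6, while those of Grik2 stayed Slf2, Smc3 and Bclaf3. Likeness here is a description of levels.

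Levels of cell type markers also differed between the genotypes, and these values stand beside all of the above. Of 8 pan-neuronal markers 7 were lower and 1 was higher, with a median log2 fold-change of -0.64. Nefl and Syt1 had -1.90 and -0.84, while Dcx, a marker of young neurons, had 0.08. The Dcx call was lost without WT replicate 1, without WT replicate 3 and without Fmr1-KO replicate 3. The summed level of these markers was 4468 to 4564 CPM in WT and 3851 to 4040 CPM in Fmr1-KO. Of 8 markers of excitatory neurons, 3 were lower and 4 higher (median -0.01), with Slc17a7 at -2.45, Slc17a6 at -0.56, Neurod2 at 0.22 and Tbr1 at 0.21. Their sum was 595.1 to 605.8 CPM in WT and 579.5 to 611.1 CPM in Fmr1-KO.

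Of 9 markers of GABAergic interneurons, the cells in which Grik1 is best known, 5 were lower and 4 higher (median -0.24). The neuropeptide genes Sst and Npy had log2 fold-changes of -2.53 and -2.43, and the transcription factor genes Dlx2 and Dlx1 had 0.59 and 0.46. Their summed level was 754.5 to 786.6 CPM in WT and 787.6 to 866.2 CPM in Fmr1-KO. Dlx1 alone went from a mean of 257.0 CPM to 354.3 CPM, while Gad1, Slc32a1 and Lhx6 were called lower along with Sst and Npy. Markers of dividing and progenitor cells were higher: 7 of 7 for proliferating cells (median 0.68, Mki67 1.09, Top2a 0.86, sum 461.2 to 500.4 against 802.5 to 859.4 CPM) and 4 of 4 tested for intermediate progenitors (median 1.66, Eomes 2.79, Neurog2 2.34, sum 100.9 to 117.3 against 224.7 to 252.0 CPM). Of 7 radial glia markers 3 were higher and 0 lower (median 0.20, or 0.08 without Fmr1-KO replicate 3, Pax6 0.52, Nes 0.28, sum 2373 to 2383 against 2628 to 2688 CPM).

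Markers of glia were present although the label is cortical neurons and astrocytes had been depleted: Gfap alone was at 2649 ± 67.0 CPM in WT (SD, n = 3). Of 7 oligodendrocyte lineage markers 7 were lower (median -0.71, Mbp -0.92, Olig2 -0.74, sum 1882 to 2043 against 1073 to 1158 CPM). Of 7 astrocyte markers 4 were lower and 1 higher (median -0.13, S100b -0.94, Aqp4 -0.72, Gja1 0.30, sum 4776 to 4896 against 4140 to 4523 CPM). Of 6 microglia markers 5 were lower (3 without WT replicate 1, median -0.51, Aif1 -1.07, C1qa -1.05, sum 119.6 to 134.4 against 76.0 to 83.3 CPM). Of 5 tested endothelial and mural markers 2 were lower (1 without WT replicate 1) and 1 higher (median -0.66, Rgs5 -0.91, Cdh5 -0.66, Pdgfrb 0.47, sum 69.7 to 76.9 against 77.4 to 81.2 CPM). Pdgfrb made up most of that sum, at 46.9 CPM in WT and 65.1 CPM in Fmr1-KO, so sum and median differed in direction. Cdh5, Pecam1 and Kcnj8 were scarce, at 2.54, 0.796 and 0.620 CPM in WT. The part of these shifts in the values of the kainate receptor and Neto genes was not tested.

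**Figure D4:**
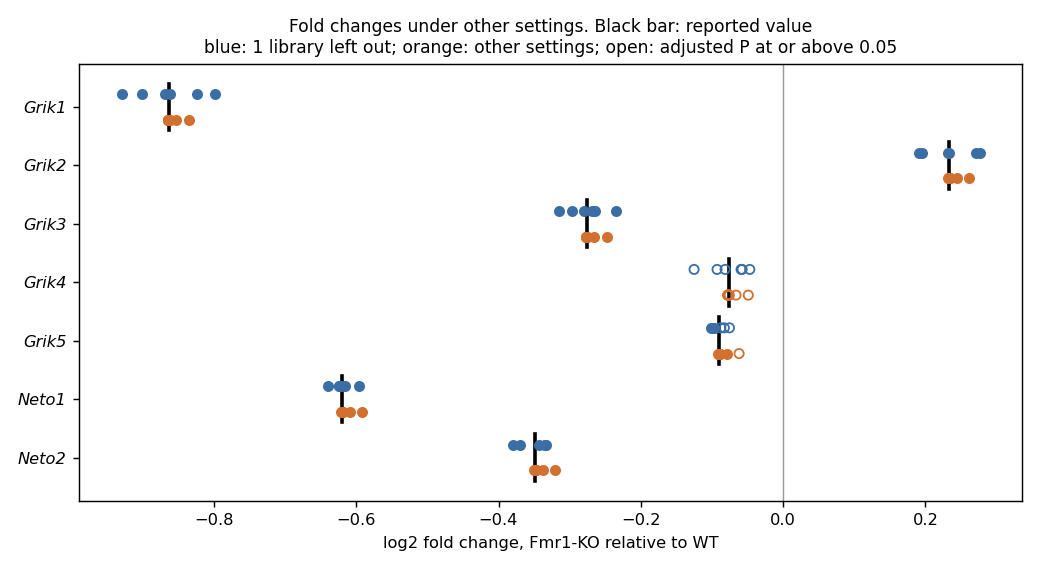
Log2 fold-change of each gene under the 14 alternatives other than the required 1.2-fold change (blue, 1 library left out; orange, other settings; open symbols, adjusted P at or above 0.05), with the reported value as a black bar. All points of a gene are on the same side of 0, and only Grik4 and part of the Grik5 points are open.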

How the data were processed

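Poly(A) RNA of 3 WT and 3 Fmr1-KO cultures had been sequenced as stranded, single-end libraries. The authors deposited raw counts per gene name, without normalization. Per the labels and methods, FastP removed adapters, STAR placed the reads on GRCm38.p6 and they were counted over exons by featureCounts in reverse-stranded mode, so antisense genes are kept apart while isoforms are not.

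Counts were tested with edgeR 4.0.16 in R 4.3.3: filterByExpr (16976 genes kept), TMM factors, glmQLFit and glmQLFTest with genotype as the only term, 2-sided, Benjamini-Hochberg adjustment over all tested genes, threshold 0.05. SE is the log2 fold-change divided by the square root of F. Groups follow the labels. Exon and coding lengths were those of GENCODE M21, which held 98.6% of tested names; the authors used a later release. Replicates differed by more than counting noise (chi-square per degree of freedom 2.92 in WT, 3.17 in Fmr1-KO), so none were merged. The common biological coefficient of variation was 3.22%. Alternatives were DESeq2 1.42.0, other scalings and filters, a replicate block, leaving out each library, removal of the 20 most abundant genes and a minimum 1.2-fold change. The script was tested on simulated data in which few genes changed, all by the same factor. Many small changes, as found here, were not simulated. Members, lists and the rule for named genes (the largest changes of each list) were chosen with earlier results of these data known. Columns of samples outside the labels numbered 0. Single values of some listed partner genes are not reported here, though the list counts include them. The 0.5 CPM offset in the comparison of profiles was chosen after seeing the data.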

Additional observations from a re-analysis of the deposited data

How the results depend on the processing

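Over 15 alternatives for each of the 7 genes, 98 of 105 fold changes kept their direction and their side of the threshold, 7 lost the call and 0 reversed. The required 1.2-fold change reuses the reported fold changes, so under it no sign could reverse and no gene could gain a call. Leaving out 1 library at a time gave log2 fold-changes from -0.93 to -0.80 for Grik1, 0.19 to 0.28 for Grik2, -0.31 to -0.23 for Grik3, -0.13 to -0.05 for Grik4, -0.64 to -0.60 for Neto1 and -0.38 to -0.33 for Neto2. For Grik5 they ran from -0.101 to -0.0753, and 3 of these 6 fits lost its call; library totals alone gave -0.062 (adjusted P 0.107 by edgeR). Requiring more than a 1.2-fold change, a stricter test by construction, left 3 members lower and 0 higher: Grik2 (0.23), Grik3 (-0.28) and Grik5 (-0.090) were not called. Over all genes it left 1340 lower and 883 higher, against 3725 and 3506, and it called 4 of the kainate receptor partners lower and 0 higher and 0 AMPA receptor genes in either direction. DESeq2 called 0 AMPA receptor genes higher, and in the fits without 1 library 1 to 2 were called lower. In those fits 5 to 6 partners were called higher, 5 in 5 of the 6 fits. The cause was not tested.

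Library totals alone moved the split over all genes to 3212 lower and 4207 higher. The difference (Fmr1-KO minus WT) of the Grik sum was then -4.06 RPKM, against -5.32. With coding lengths, which are shorter, the differences were 4.60 percentage points for the Grik2 share, -4.03 for the Grik3 share, 3.15 for the Neto2 share, -11.3 RPKM for the Grik sum, -34.2 RPKM for the Neto sum and -0.159 for the ratio of the sums. Replicate numbers did not pair the libraries (correlations of deviations -0.0496, 0.0469 and 0.000739), and the fit with the replicate number as a block called 3694 lower and 3488 higher, with every member on the same side of the threshold. Of the other 740 recomputed values, 693 stayed within their limits. Grik1 had the fewest counts of the members, 186 to 401 in a library.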
